A study of Caenorhabditis elegans with 2 samples.

Results

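Homeobox genes of Caenorhabditis elegans were taken here as the protein-coding genes whose names start with ceh-, which gave 63 genes, and 28 further homeobox genes listed by name. They were 91 of 19973 nuclear protein-coding genes. The rule used no measured value, but the set was chosen with earlier results of these data known. The data are a chromatin immunoprecipitation and sequencing experiment on ZAG-1 in whole larvae of stage L3. The worms were of strain OP83, with genotype unc-119(ed3) III; wgIs83, in which the transgene wgIs83 gives an eGFP-tagged ZAG-1, and the label gives a pool of mixed sex. There was 1 group of 2 biological replicates, so no conditions could be compared. The cells in which the transgene is active are not given in the labels, and whole animals mix all tissues.

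Homeobox genes encode transcription factors that bind DNA through a homeodomain. They fall into classes. The Hox genes pattern the body along its length, LIM and paired-class genes are known in worms above all for setting the identity of single neuron types, and POU genes act in neurons and other tissues. ZAG-1, the worm ZEB protein, carries zinc fingers beside a homeodomain and acts in neuronal differentiation. Of the 91 genes, 6 were LIM, 6 Hox, 15 paired and 2 POU, and 62 belonged to other classes or were not classed here.

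A called region was assigned to 1 gene, that whose protein-coding transcript start came closest to the region's summit, if this distance was at most 5000 bp. The optimal set, which the authors selected for agreement between replicates, held 357 regions, 339 of them nuclear. A joint list made from both replicates held 10005, the list of replicate 1 held 30000 and that of replicate 2 held 26202. The 3 longer lists hold background regions on purpose, so a place in them does not by itself make a region a binding site. Scores are the authors' own and their scale differs between lists. They are used here to rank regions within a list. The series' own target, zag-1, had no region in any of the 4 lists.

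No homeobox gene had an optimal region. The count was 0 of 91, against 303 of 19973 genes (1.52%). A count of 0 allows a share of up to about 3.30%, an approximate limit taken as 3 divided by 91. From the bases around the homeobox genes alone, 2.22 optimal regions would have fallen to them at the mean density of all genes. The highest homeobox region of the joint list, at unc-62, scored 30.2 at rank 440, while the lowest optimal region scored 33.002 at rank 357. The 357 optimal regions were the 357 highest of the joint list, so 82 joint regions, none of them at a homeobox gene, stood between.

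In the longer lists a larger share of homeobox genes than of all genes had a region, while the number of regions per base was close. In the joint list 43 of 91 homeobox genes (47.3%) had at least 1 region, against 30.7% of all genes. In replicate 1 the count was 75 of 91 (82.4%), against 63.8%, and in replicate 2 it was 63 of 91 (69.2%), against 59.1%. With each replicate list cut to its 10005 highest regions, the length of the joint list, the counts were 38 of 91 (41.8%), against 31.5%, in replicate 1 and 36 of 91 (39.6%), against 31.1%, in replicate 2. Homeobox genes had more room to receive regions: the stretch for which a gene had the nearest start was 6176 bases at the median homeobox gene and 3775 bases at the median gene. Counted per 10 kb of that stretch, homeobox genes had 1.13 joint regions and all genes 1.01. The values were 2.99 and 3.01 in replicate 1 and 2.70 and 2.64 in replicate 2, again homeobox genes first. In numbers, 72 joint regions were placed at homeobox genes, where 64.5 would be given by the mean density, and 191 in replicate 1 and 173 in replicate 2, where it would give 193 and 169. The order of the joint densities turned when the list was replaced by the 10005 highest regions of a single replicate: homeobox genes then had 0.828 regions per 10 kb from replicate 1, against 1.00 for all genes, and 0.969 from replicate 2, against 1.01.

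**Figure D1:**
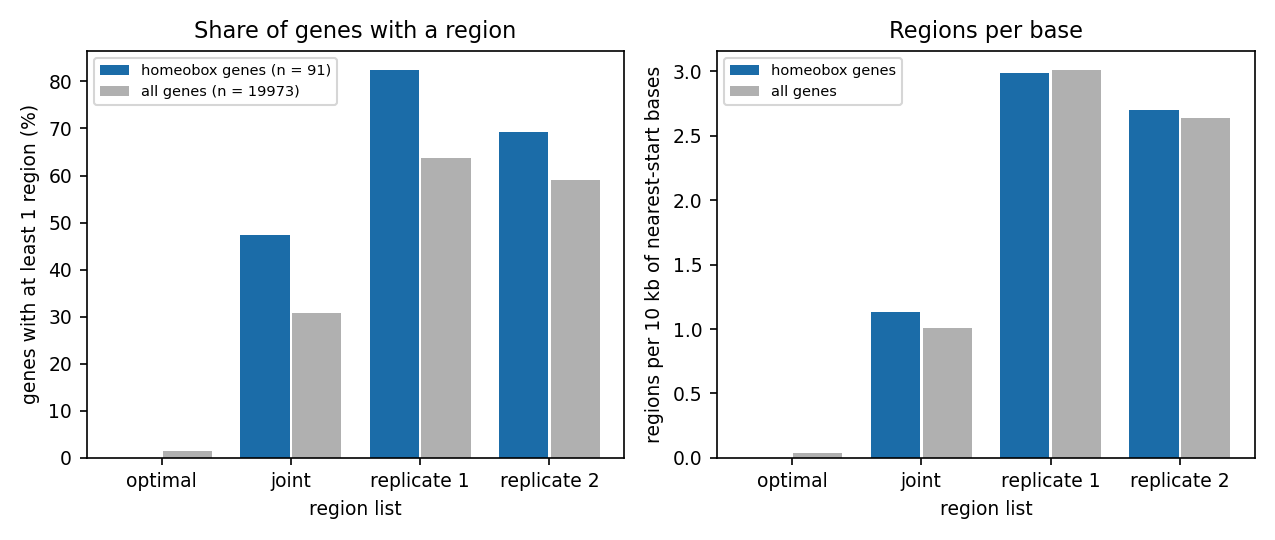
Left, the percentage of genes with at least 1 region in each list, for homeobox genes (blue) and all nuclear protein-coding genes (grey); right, regions per 10 kb of the bases nearest to a gene's start. The shares stand apart in the 3 longer lists (47.3% against 30.7% in the joint list), while the densities lie close (1.13 against 1.01).

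Among genes with like room, the shares were closer in most bands. Of homeobox genes with up to 2500 bases, 1 of 7 had a joint region (14.3%), against 14.2% of all such genes. Between 2500 and 5000 bases it was 7 of 26 (26.9%), against 25.7%. Between 5000 and 10000 bases it was 25 of 43 (58.1%), against 44.3%. Above 10000 bases it was 10 of 15 (66.7%), against 75.7%. Homeobox genes were higher in the third band and lower in the last, and no test was made of either difference. The sets also differed by chromosome: 28 of the 91 homeobox genes lay on X, against 2731 of all 19973 genes. On X 14 of the 28 had a joint region, against 39.8% of all X genes. On the other chromosomes the share of all genes ran from 23.9% to 34.8%. What this adds to the difference in shares was not tested.

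**Figure D2:**
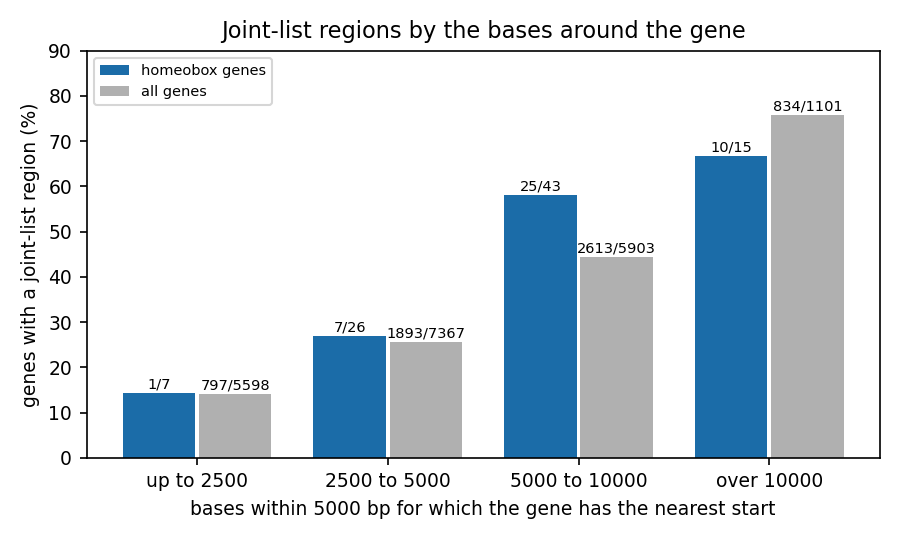
Percentage of genes with a joint-list region by the number of bases within 5000 bp for which the gene has the nearest start, with counts above the bars, for homeobox genes (blue) and all genes (grey). Both sets climb with the bases, from 14.3% and 14.2% in the lowest band to 66.7% and 75.7% in the highest.

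The share of homeobox regions of the joint list found in both replicates was close to that of joint regions of all genes, and it depended on how a match was defined. Of the 72 regions, 26 had a summit within 100 bp in both replicate lists (36.1%, exact 95% interval 25.1 to 48.3, counting error only), against 35.6% of the 9209 joint regions given to any gene. A further 29 were found in replicate 2 alone (40.3%, against 37.6%), 15 in replicate 1 alone (20.8%, against 20.6%) and 2 in neither. With summits within 200 bp the share in both was 54.2%, against 50.4%, and with an overlap of 1 bp it was 61.1%, against 59.0%, so the regions in both became the larger part of either set. Below, a region is called matched in a replicate where a summit lies within 100 bp. Of the 31 homeobox regions not matched in replicate 1, 10 were overlapped by a region there, and of the 17 not matched in replicate 2, 10 were. By gene, 24 of 91 homeobox genes (26.4%) had a region of each replicate with summits within 100 bp of each other, against 15.6% of all genes. Genes with a joint region found in both replicates were 23 of 91 (25.3%), against 13.6% of all genes. These 2 shares by gene were not adjusted for room, which was 6176 bases at the median homeobox gene and 3775 at the median gene. What room adds to these differences was not tested. The median homeobox region ranked 4813.5 in the joint list, and the median region of any gene 5008. Their median scores were 14.9 and 14.7. Among the 1000 highest joint regions were 6 homeobox regions, 8.33% of the 72, against 10% of the regions of all genes.

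The 2 highest homeobox regions lay at unc-62 and unc-42. The gene unc-62 encodes a Meis-type protein of the TALE class, known as a partner of Hox proteins, and unc-42 a paired-class protein known for the identity of interneurons and motor neurons. The unc-62 region, at chrV:4498927-4499310 in ce11, lay in an intron, 208 bp before the nearest start. It ranked 482 in replicate 2 with a score of 19.5, but 15156 in replicate 1 with a score of 5.21, just below the middle of that list. The unc-42 region, at chrV:9769399-9769782, lay outside the gene 200 bp before its start, with a joint score of 28.8 at rank 491. It ranked 1321 in replicate 1 (score 10.4) and 536 in replicate 2 (score 18.8), and among these regions it was the one placed well up both lists. A second unc-62 region, in the 5' UTR 1116 bp inside a start, had a joint score of 25.4 at rank 695 and ranked 12073 in replicate 1 and 311 in replicate 2. That rank of 311 was the highest of any homeobox region in either replicate.

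Next came lim-4, ceh-5 and ceh-48. The LIM gene lim-4, known for the fate of the AWB olfactory neurons, had an intronic region at chrX:3871559-3871942 with a joint score of 24.4 at rank 774, which ranked 12005 in replicate 1 and 637 in replicate 2. The ANTP-class gene ceh-5 had the highest homeobox region of replicate 1, with a score of 13.6 at rank 451. The joint region there scored 23.8 at rank 826, lay 1708 bp upstream of ceh-5 inside eat-16 and ocrl-1, and ranked 7374 in replicate 2. The ONECUT gene ceh-48, which is expressed throughout the nervous system, had a region 2128 bp upstream with a joint score of 23.1 at rank 909, matched in replicate 2 (rank 437), with no overlapping region in replicate 1. Each of these 3 regions ranked within the first 1000 in 1 replicate and not in the other.

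Windows of 101 bp at the summits show what sequence the called regions hold. They are on the plus strand of WBcel235 (ce11), read from the RefSeq copy of the genome. The first 6 are the highest homeobox regions found in both replicates, leaving out windows that touch a UTR and that of ceh-5, which is not printed. The last 3 hold a word of interest, in capitals: GAGAGA, or CACCTG, the word bound by vertebrate ZEB proteins. Of these last 3, the ceh-58 region was found in both replicates. The lin-39 and unc-42 regions among them were matched in replicate 2 alone, with no overlapping region in replicate 1.
unc-62, chrV:4499069-4499169: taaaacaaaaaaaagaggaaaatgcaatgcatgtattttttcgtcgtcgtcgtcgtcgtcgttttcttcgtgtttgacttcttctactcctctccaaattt
unc-42, chrV:9769541-9769641: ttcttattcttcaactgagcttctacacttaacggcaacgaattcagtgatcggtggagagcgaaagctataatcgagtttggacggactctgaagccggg
lim-4, chrX:3871701-3871801: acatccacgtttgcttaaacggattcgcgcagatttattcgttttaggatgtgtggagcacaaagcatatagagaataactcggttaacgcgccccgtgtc
lin-39, chrIII:7535069-7535169: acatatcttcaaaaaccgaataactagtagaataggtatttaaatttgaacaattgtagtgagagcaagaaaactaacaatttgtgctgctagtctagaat
ceh-24, chrV:13812518-13812618: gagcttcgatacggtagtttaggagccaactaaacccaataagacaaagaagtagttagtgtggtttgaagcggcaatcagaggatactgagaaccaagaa
ceh-13, chrIII:7558308-7558408: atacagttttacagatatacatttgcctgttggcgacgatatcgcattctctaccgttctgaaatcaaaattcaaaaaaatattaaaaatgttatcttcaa
ceh-58, chrII:10373700-10373800: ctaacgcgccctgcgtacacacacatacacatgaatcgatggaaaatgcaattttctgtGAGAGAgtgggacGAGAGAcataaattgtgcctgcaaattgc
lin-39, chrIII:7533903-7534003: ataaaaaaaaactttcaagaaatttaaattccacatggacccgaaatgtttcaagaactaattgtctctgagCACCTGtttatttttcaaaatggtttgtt
unc-42, chrV:9768109-9768209: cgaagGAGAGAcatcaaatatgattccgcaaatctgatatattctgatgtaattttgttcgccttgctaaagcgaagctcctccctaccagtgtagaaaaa

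Neither word was in the first 6 windows, on either strand. Over all 72 homeobox regions CACCTG was within 50 bp of 1 summit (1.39%, exact 95% interval 0.0352 to 7.50), against 1.97% of the joint regions of all genes. It was the lin-39 window above, at rank 2947. GAGAGA was within 50 bp of 4 summits (5.56%, interval 1.53 to 13.6), against 9.02%: at ceh-58, at unc-42 and, in windows not printed, at ceh-5 and zfh-2. The order of the GAGAGA shares depended on the choices made: from the 10005 highest regions of replicate 1 alone the share was 9.43%, against 8.64%, from those of replicate 2 alone 8.06%, against 9.33%, and within 100 bp of joint summits 16.7%, against 16.5%. In windows of the same length centred on transcript starts, GAGAGA was in 10.7% of the 178 starts of homeobox genes and 7.27% of all 29314 starts, and CACCTG in 1.69% and 2.90%. The words do not overlap each other. The unc-62 window holds a run of the triplet CGT. A run of 4 or more, on either strand, was in that 1 homeobox window and in 6 of all 9209 windows (0.0652%), a comparison chosen after the sequence was seen.

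By class, LIM genes had the largest share with a joint region and the 62 genes outside the 4 named classes the smallest, and these also had the least room at the median gene. All 6 LIM genes of the set had a joint region, where 30.7% of all genes did. Of these 6, 5 had a region in both replicates within 100 bp, where 15.6% of all genes did. The median LIM gene had 8823 bases nearest to the start, and the 6 ran from 6111 to 10802. Of all genes with 5000 to 10000 bases 44.3% had a joint region, and of those with more 75.7%. Of the 6 Hox genes 4 had a joint region (median 9359 bases), of 15 paired genes 8 (median 7308), of 2 POU genes 1 (median 12226), and of 62 others 24 (median 5070). Per 10 kb, LIM genes had 1.37 joint regions, Hox genes 1.80, paired genes 1.16, POU genes 0.818 and the others 0.997, against 1.01 over all genes. The class counts are small, and 1 gene can set them. They cover only the genes of the set. The LIM gene mec-3 and the POU gene unc-86, which the naming rule left out, had no joint region.

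**Figure D3:**
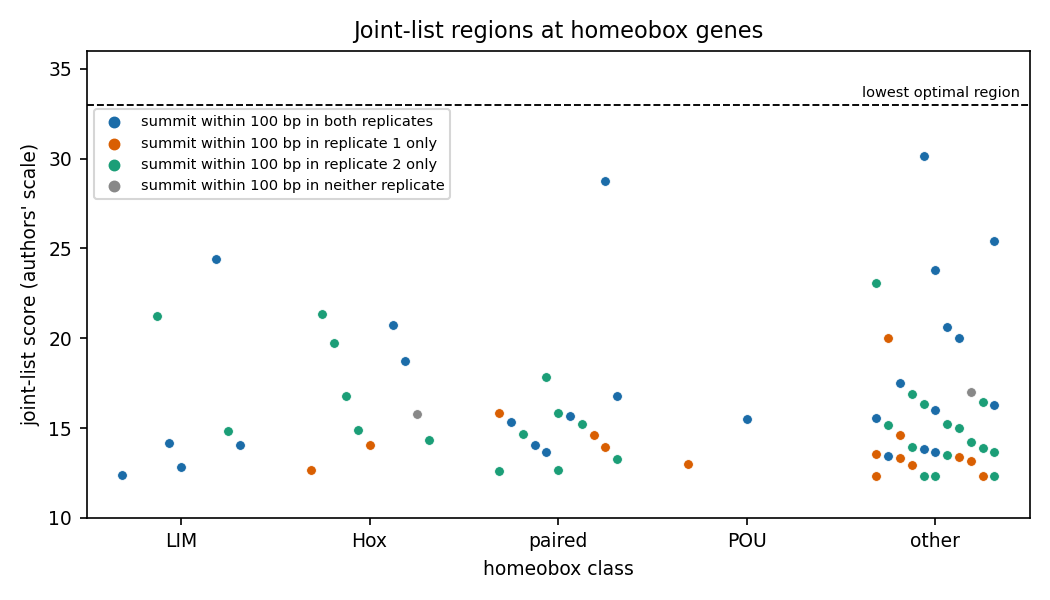
Joint-list score (authors' scale) of each of the 72 regions at homeobox genes by class, coloured by the replicate lists that hold a summit within 100 bp; the dashed line is the lowest optimal region, at 33.002. All points lie below the line, and the highest, at unc-62 in the class of others, scored 30.2.

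Among LIM genes the regions were low apart from lim-4 and ceh-14. An intronic region at ceh-14, a Lhx3 relative of thermosensory and tail neurons, had a joint score of 21.2 at rank 1183 and was matched in replicate 2 (rank 672). The replicate 1 region that overlapped it ranked 26780, with its summit 148 bp away. The Islet relative lim-7 had 2 regions, the higher with a score of 14.9 at rank 4831. One region each lay at ttx-3, which sets the fate of the AIY interneurons (score 14.2, rank 5841), at lim-6 (14.1, rank 6062) and at lin-11, which acts in the vulva and in neurons (12.8, rank 8397). The lim-6 region was found in both replicates, at rank 13115 in replicate 1 and 12304 in replicate 2.

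The Hox regions of the joint list lay mainly at lin-39 and ceh-13, which are neighbours. lin-39, the mid-body Hox gene of vulval fate, had 5 joint regions, the most of any homeobox gene, and ceh-13, the anterior Hox gene related to labial, had 3. The highest at lin-39 was intronic, with a score of 21.4 at rank 1158, and was matched in replicate 2 (rank 593). The replicate 1 region that overlapped it ranked 10359, with its summit 344 bp away. The one at lin-39 that was in both replicates, 314 bp before a start, scored 20.7 at rank 1274 and ranked 2809 in replicate 1 and 4590 in replicate 2. The ceh-13 region found in both, 2698 bp inside the start and beyond the gene's end, scored 18.7 at rank 1870 and ranked 4671 in replicate 1 and 5810 in replicate 2. The highest at ceh-13, 878 bp upstream, scored 19.7 and was matched in replicate 2, while an overlapping region of replicate 1 ranked 18036, its summit too far to match.

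In the 33.4 kb that run from 2000 bp beyond the end of lin-39 to 2000 bp beyond that of ceh-13, no other protein-coding gene lies. This stretch held 12 joint regions, or 3.59 per 10 kb, against 0.996 over all nuclear chromosomes. Replicate 1 had 3.59 regions per 10 kb there, against 2.99 over all nuclear chromosomes, and replicate 2 had 5.99, against 2.61. The stretch was looked at after its regions were seen, so these values are a description. Of the 12 joint regions 4 lay more than 5000 bp from any start and were given to no gene. The stretch held no optimal region.

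**Figure D4:**
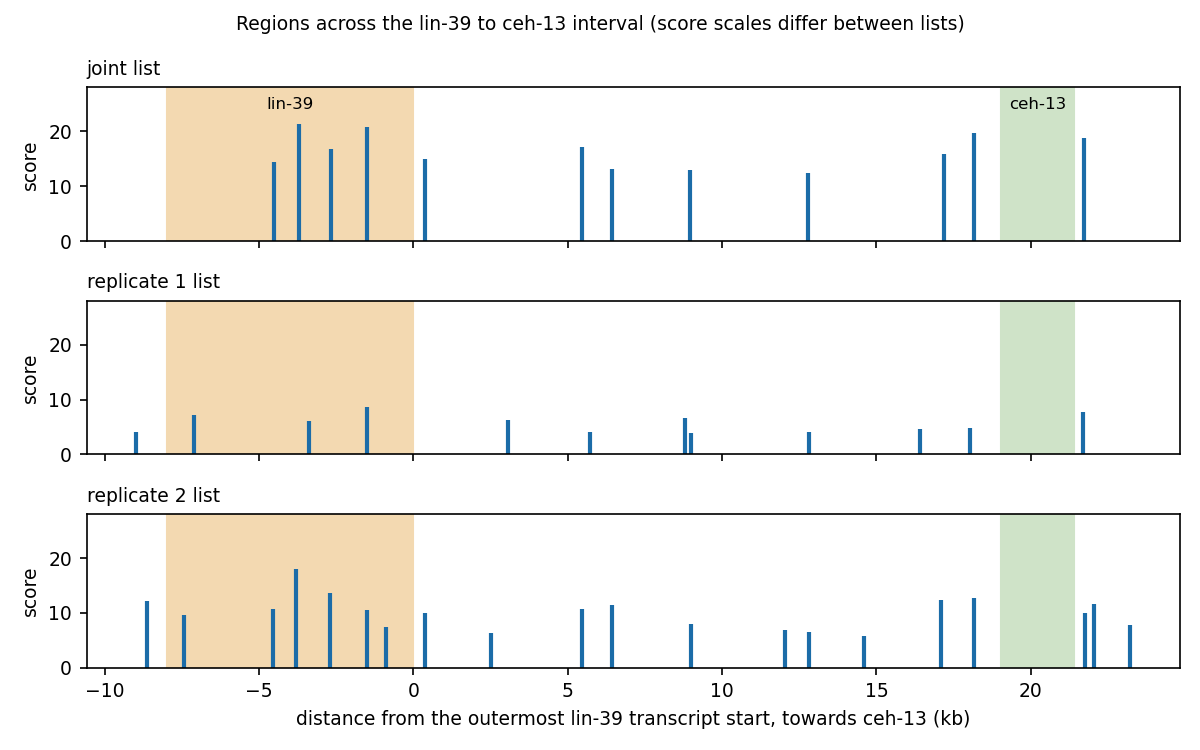
Regions of the joint list and both replicate lists across the stretch from lin-39 (orange) to ceh-13 (green), by distance in kb from the outermost lin-39 start; bar height is the authors' score, whose scale differs between lists. Replicate 2 has 20 regions there and replicate 1 has 12, and none of the joint bars passes 21.4.

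The other Hox genes had few and low regions. mab-5, which guides migrating neuroblasts of the posterior body, had 1 joint region 1151 bp upstream with a score of 14.1 at rank 6026, matched in replicate 1 (rank 4670), with no overlapping region in replicate 2. php-3, a posterior Hox gene, had 1 intronic region with a score of 12.7 at rank 8857, matched in replicate 1 (rank 21777). The replicate 2 region that overlapped it ranked 11362, with its summit 108 bp away. egl-5 and nob-1, the other posterior Hox genes, had none in the joint list within 5000 bp. Farther out, a joint region lay 7571 bp upstream of egl-5 (rank 9418) and one 5100 bp upstream of nob-1 (rank 6431). Within 5000 bp the best ranks of egl-5 and nob-1 were 9904 and 7896 in replicate 1, and 20330 and 16258 in replicate 2.

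Paired-class genes had 16 joint regions at 8 of 15 genes, and 6 of the 16 were in both replicates. unc-42 had 4, of which a pair overlapped, with summits 216 bp apart. unc-30, the Pitx relative that sets the fate of GABA motor neurons, had 3. The highest at unc-30 scored 16.8 at rank 2950, lay in a coding exon, and ranked 2521 in replicate 1 and 9287 in replicate 2. ceh-17, the Phox2 relative, had a region with a score of 17.8 at rank 2316 inside col-52, matched in replicate 2 (rank 1519). The replicate 1 region that overlapped it ranked 26518, with its summit 169 bp away. dsc-1 had a region in its 3' UTR that ranked 906 in replicate 1, with no overlapping region in replicate 2. At vab-3, the Pax6 gene, the 2 joint regions overlapped, with summits 203 bp apart and a higher score of 15.3. The motor neuron gene unc-4, the Chx10 relative ceh-10 and the Otx relatives ttx-1 and ceh-37 were among the 7 paired genes with no joint region within 5000 bp.

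The 2 POU genes of the set had 2 joint regions, both at ceh-18, which acts in the gonadal sheath. The higher scored 15.5 at rank 4080 and ranked 3632 in replicate 1 and 22229 in replicate 2. ceh-6, known for the excretory cell, had none in the joint list, 4 regions in replicate 1 and 1 in replicate 2.

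Among the other classes the NK and other ANTP genes had a joint region at 11 of 25, the CUT genes at 4 of 7, the sine oculis genes at 2 of 3 and the TALE genes at 1 of 5, unc-62. The caudal gene pal-1 had none. Over all genes the share with a joint region was 30.7%. Room differed between these groups. The median gene had 6176 bases among NK and other ANTP genes, 3595 among CUT, 5131 among sine oculis and 3996 among TALE genes. The ONECUT gene ceh-38 had a region in its 5' UTR, 37 bp before a start, with a score of 20.6 at rank 1298, which ranked 4035 in replicate 1 and 2914 in replicate 2. It stood in the upper part of both lists. The NK-2 gene ceh-24 had a region 663 bp upstream with a score of 20.015 at rank 1438, ranked 18735 in replicate 1 and 1872 in replicate 2. dve-1, a SATB-like gene known from the mitochondrial stress response, had 3 regions, the highest with a score of 16.016. zfh-2, with 35561 bases nearest to its starts the widest of the homeobox genes, had 3 regions, the highest with a score of 13.9. The sine oculis genes ceh-32 and ceh-34 had 1 region each, with scores of 16.3 and 15.6, each found in both replicates.

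Of the 20 genes not classed here (median 3823.5 bases), 5 had a joint region (25%), against 30.7% of all genes. The highest, at ceh-89, scored 20.026 at rank 1436 and lay 370 bp upstream of the start. It ranked 620 in replicate 1, and the replicate 2 region that overlapped it ranked 18443, with its summit 137 bp away. No region in any list was given to 10 homeobox genes: ceh-21, ceh-40, ceh-63, ceh-74, ceh-79, ceh-81, ceh-83, ceh-88, ceh-99 and tab-1. Their bases nearest to a start ran from 1863 to 3999, all below the homeobox median of 6176. The median over all genes was 3775, and ceh-63 (3999), ceh-88 (3838) and ceh-79 (3809) lay above it. The share of all genes with no region in any list is not given here, so the count of 10 is a description.

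Of the 26 homeobox regions found in both replicates, 13 had the higher rank in replicate 2, taken relative to the length of each list, as did 50.1% of such regions of all genes. For the 41 homeobox regions matched in replicate 1 the median rank there was 9907, against 6630.5 for the regions of all genes, and for the 55 matched in replicate 2 it was 5810, against 5474.5. Among the 1000 highest regions of a replicate were 4 homeobox regions in replicate 1 (2.09% of its 191, against 3.31% of the regions of all genes) and 8 in replicate 2 (4.62% of its 173, against 3.79%).

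**Figure D5:**
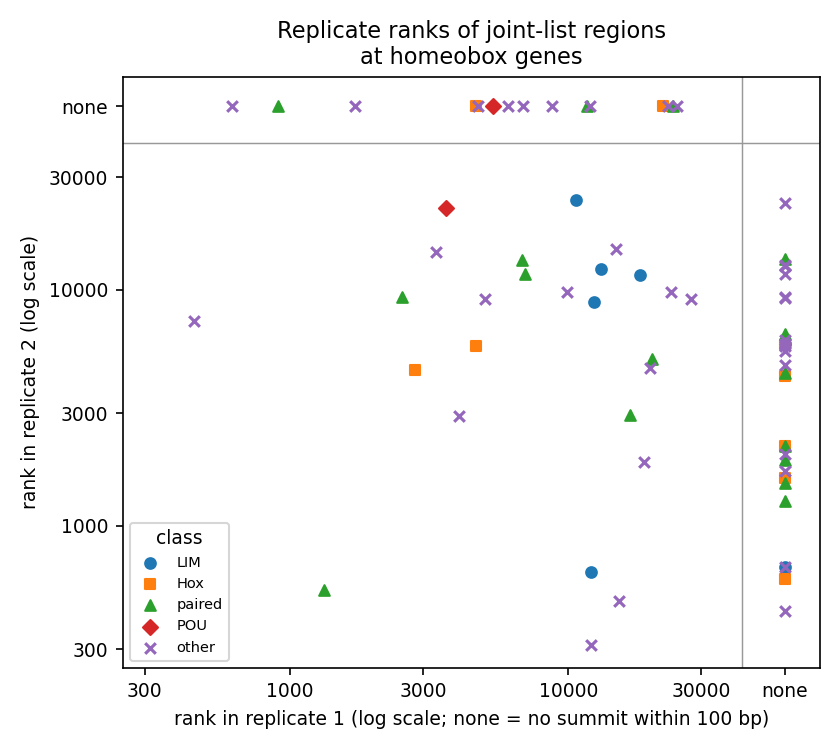
Rank in replicate 1 (horizontal, log scale) and replicate 2 (vertical, log scale) of the joint-list regions at homeobox genes, by class; points in the margins had no summit within 100 bp in that replicate, and the 2 regions found in neither are not drawn. The unc-42 region, at ranks 1321 and 536, stands alone near the lower left corner.

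The homeobox regions lay somewhat more often in introns than those of all genes. Of the 72, 29 (40.3%) fell in an intron of the gene they were given to, against 31.2% of the joint regions of all genes, and 5 (6.94%) in a coding exon, against 10.9%. The span of 1000 bp before and 100 bp after a start held 19 (26.4%), against 31.6%. The median distance to the start was 1188.5 bp, against 1053 bp. No test was made of these differences.

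Some genes known as partners of homeodomain proteins or as regulators of Hox or other homeobox genes had optimal regions. Of 13 such genes, listed from their known roles but with earlier results of these data known, 3 had an optimal region, where 1.52% of all genes did, and 10 had a joint region, where 30.7% of all genes did. The choice of the list may favour genes with regions, so its counts are a description. The list's 17 joint regions come to 1.91 per 10 kb, against 1.01. sor-1, which takes part in the Polycomb-like repression of Hox genes, had a region 568 bp upstream at chrIII:8417408-8417791 with an optimal score of 79.5 at rank 57, and ranked 106 in replicate 1 and 41 in replicate 2. ldb-1, which encodes the cofactor that binds LIM homeodomain proteins, had an intronic region at chrX:11031214-11031597 with an optimal score of 61.2 at rank 88, and ranked 95 in replicate 1 and 117 in replicate 2. lin-59, a SET-domain gene of the trithorax type that maintains Hox expression, had a region 506 bp upstream with an optimal score of 48.8 at rank 146, and ranked 440 in replicate 1 and 94 in replicate 2. These 3 stood high in both replicates. The optimal set was selected for agreement between replicates, so these ranks are no separate support.

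bet-1, a bromodomain gene that keeps neuronal fates, came close with a joint score of 31.8 at rank 389, but had no summit within 100 bp in replicate 1. Of the genes for the Polycomb complex, mes-2 had a joint region 117 bp upstream with a score of 16.6 at rank 3059, which ranked 14143 in replicate 1 and 9622 in replicate 2, while no region in any list was given to mes-3 or mes-6. No difference between this list and the homeobox genes was tested. Among 6 homeobox genes outside the set, mec-3, unc-86, zag-1 and hmbx-1 had no joint region, pros-1 had 1 (score 12.2) and the sine oculis gene unc-39 had 3, the highest with a score of 15.3 and all matched in replicate 2 alone.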

How the data were processed

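The authors deposited region lists in ce11 (WBcel235), each with a score per region (column 7), set against a control file, and a summit. Per the notes deposited with the lists, each replicate list came from 1 alignment and the control, the joint list from both alignments, and the optimal set by the irreproducible discovery rate, which measures how well replicates rank the same regions. Libraries were of 150 to 350 bp, per the labels. Not given in the sources used here are the aligner, caller and threshold. The ce10 lists and the control reads were not analysed here. Depth is unknown, so no score has an error, and intervals on shares (exact, 95%) cover the counting of regions only.

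Gene models were Ensembl release 115, and the highest region end on each chromosome lay within the reference length. Mitochondrial regions were left out. Coordinates are 1-based, and no chromosome I sequence is printed. The bases of a gene are those within 5000 bp for which it has the nearest start. Assignment and matching were checked on simulated starts. Scripts ran in Python 3.11.15 with SciPy 1.17.1 and matplotlib 3.10.9.

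The homeobox genes, the lists and the named genes (the 12 highest by joint score, the highest of each class, Hox and POU genes, the 5 with most regions, those with none, and the genes outside the set) were chosen with earlier results of these data known; some further genes were named after their values were seen. With 1 group no test was made: counts stand beside those of all genes. The bands of bases were set after the joint counts were seen.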

Additional observations from a re-analysis of the deposited data

How the results depend on the processing

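No paired analysis was possible because both libraries belong to the same group. Of 27 alternatives 17 left their value within its error or within 1.5 times. With every start within 5000 bp in place of the nearest, 1 homeobox gene, ceh-5, gained an optimal region (3.75% of all genes had one then); its start lay 4884 bp from a region 431 bp from that of eat-16. Windows of 1000, 2000 and 10000 bp gave 0. The 43 of 91 genes with a joint region became 20 of 91 within 1000 bp, against 18.8% of all genes. They were 48 of 91 within 10000 bp, against 31.7%, and 58 of 91 with every start, against 58.2%. Among the 5000 highest regions they were 27 of 91, against 17.5%. The gap to all genes was narrower within 1000 bp and with every start, and wider within 10000 bp. Genes with a region in both replicates numbered 15 within 50 bp (10.3% of all genes), 36 within 200 bp (21.4%), and 8 when each replicate was cut to the length of the joint list (4.88% of all genes). The share of joint regions in both was 22.2% within 50 bp, 54.2% within 200 bp and 61.1% for a 1 bp overlap, against 22.3%, 50.4% and 59.0% for all genes. GAGAGA within 100 bp was in 16.7% of summits, against 16.5%. Leaving out replicate 1 gave 36 genes (31.1% of all genes), and leaving out replicate 2 gave 38 (31.5%). The densities were 0.969 and 0.828 regions per 10 kb, against 1.01 and 1.00 for all genes. The median rank was 5671 in both cases, against 4990 and 4992 for all genes. In the joint list it was 4813.5, against 5008, so the order turned. GAGAGA was in 8.06% and 9.43% of summits, against 9.33% and 8.64%. The density below that of all genes, without either replicate, stands against 1.13 in the joint list. The cause was not tested.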

Other observations

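Regions lay inside homeobox genes without being given to them. Of 46 joint regions with a summit in the body of a homeobox gene, 39 were given to that gene. The others lay in ceh-100, with 3 regions whose nearest start was that of clec-4, and in ceh-39, irx-1, ceh-34 and mab-5. The highest, in a coding exon of ceh-100, scored 20.6 at rank 1300 and lay 10857 bp from the clec-4 start.

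The distance rule had a near edge. The farthest joint regions inside it were those of alr-1 at 4808 bp and cog-1 at 4172 bp. Just outside lay a region 5100 bp upstream of nob-1 (score 13.8) and one 5179 bp upstream of ceh-86 (score 13.3). Between 5000 and 10000 bp there were 11 joint regions whose nearest start was that of a homeobox gene, at 9 genes, out of 670 for all genes; lin-39 had 3 of them, the highest with a score of 17.1 at 5456 bp.

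Optimal regions came within 20000 bp of a homeobox start at 6 genes: ceh-5, ceh-54, ceh-30, ceh-23, ceh-58 and lim-6. The nearest starts to these regions were those of eat-16, T13C5.6, cnnm-3, rpl-35, ztf-27 and pigx-1. The highest, by rpl-35 and 15114 bp from ceh-23, scored 123. How many of all genes lay within 20000 bp of an optimal region is not given here, so these 6 genes are a description.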
